A study of Mus musculus with 6 samples.

Results

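The Toll-like receptors were followed as a family in sorted mammary gland macrophages. The members were the 10 receptor genes *Tlr1*, *Tlr2*, *Tlr3*, *Tlr4*, *Tlr5*, *Tlr6*, *Tlr7*, *Tlr8*, *Tlr9* and *Tlr13*, taken by gene symbol from the 24061 symbols of the raw count table. Gene expression was measured by bulk RNA-seq in 3 Lyve-1- and 3 Lyve-1+ libraries, and the comparison addresses whether these macrophage populations differ in their transcription. Both populations came from the #4 inguinal mammary glands of FVB/N mice without treatment and were sorted as CD45+CD11b+F4/80+ cells, with Lyve-1, a hyaluronan receptor, absent or present at the surface. Each library was a pool of 4 mice, so the spread between libraries is a spread between pools. In each subset replicate 1 came from mice of 6 weeks and replicates 2 and 3 from mice of 10 weeks.

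Toll-like receptors are transmembrane sensors with which macrophages and dendritic cells detect microbial products and some molecules of damaged tissue. At the cell surface, TLR2 paired with TLR1 or TLR6 binds lipoproteins, TLR4 with MD-2 and CD14 binds lipopolysaccharide, and TLR5 binds flagellin. In endosomes, TLR3 binds double-stranded RNA, TLR7 and TLR8 bind single-stranded RNA and its breakdown products, TLR9 binds unmethylated CpG DNA and TLR13 binds bacterial ribosomal RNA. Most signal through MyD88 to NF-kB and interferon regulatory factors, while TLR3 uses TRIF and TLR4 uses both adaptors.

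The sort was visible in *Lyve1* itself, whose level in CPM (counts rescaled by TMM to a shared library size) averaged 5.18 ± 3.27 without and 1245 ± 963 with Lyve-1 at the surface (SD, n = 3 pools each). Its log2 fold change (log2FC, Lyve-1+ against Lyve-1-) was 7.93 (edgeR adjusted p = 0.0254). The libraries held between 6478007 and 21406839 counts, so that 3 counts, the limit that a count of 0 allows, corresponded to 0.144 to 0.437 CPM for counting error only. Some libraries stood apart. Of 1122 olfactory receptor genes, whose products sense odours, Lyve-1- replicate 3 had counts for 652, Lyve-1+ replicate 1 for 370 and Lyve-1+ replicate 2 for 134, while the other libraries had counts for 4 to 34. These genes carried 2.64 counts per kb of exon in Lyve-1- replicate 3, and each receptor below is read against that density where it matters. The 7 macrophage markers, among them *Adgre1* (listed as *Emr1*; F4/80), *Itgam* (CD11b), *Ptprc* (CD45) and *Csf1r*, had counts in all 6 libraries, with summed levels of 3481 to 4813 CPM in the Lyve-1- subset and 4087 to 4985 CPM in the Lyve-1+ subset. In bulk samples fewer cells of a type and less RNA per cell cannot be told apart.

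All 10 receptors passed the filter on low counts, among 13348 genes tested. None was called as different between the subsets, where a call needed both a log2FC larger than 1 in size and an adjusted p under 0.01 (edgeR quasi-likelihood test, 0.112% of all genes called), and DESeq2 called 0 as well (1.06% of all genes called). At an unadjusted p under 0.05, edgeR gave 2 receptors higher in the Lyve-1+ subset, *Tlr4* and *Tlr8*, where 4.2% of all genes were, and 0 lower, where 3.5% of all genes were. DESeq2 gave 1, *Tlr4*, where 8.65% of all genes were in either direction. Every Lyve-1+ library lay above every Lyve-1- library for the same 2 receptors, *Tlr4* and *Tlr8* (7.82% of all genes), and every Lyve-1+ library lay below every Lyve-1- library for 1, *Tlr9* (6.5% of all genes). The 3 receptors were the same when the counts were scaled by DESeq2 size factors or by total size, and after subtraction of the olfactory receptor density.

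**Figure D1:**
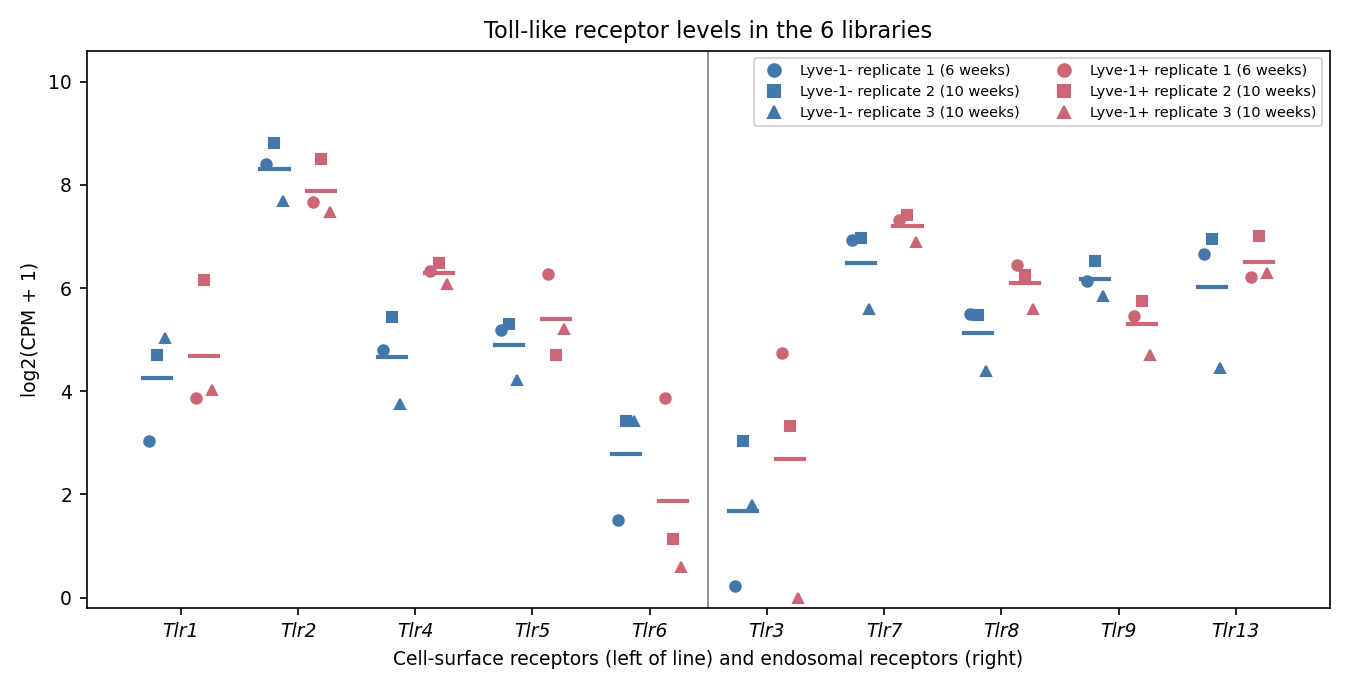
Level of each Toll-like receptor in each library, as log2(CPM + 1), with cell-surface receptors left of the line and endosomal receptors right of it. Each symbol is 1 pool of 4 mice and each bar the mean of 3 pools; the Lyve-1+ symbols of *Tlr4* and *Tlr8* lie above and those of *Tlr9* below all Lyve-1- symbols.

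*Tlr4* (chromosome 4 of mm10, 66827584 to 66930284, plus strand) encodes the lipopolysaccharide receptor. It had 319, 477 and 85 counts in Lyve-1- replicates 1, 2 and 3 and 1042, 1858 and 527 counts in Lyve-1+ replicates 1, 2 and 3. In CPM the Lyve-1- libraries were at 26.8, 42.4 and 12.4 and the Lyve-1+ libraries at 79.4, 89.0 and 66.4. The lowest Lyve-1+ library was thus above the highest Lyve-1- library. The subset means were 27.2 ± 15.0 and 78.3 ± 11.3 CPM (SD, n = 3 each), a log2FC of 1.52 (standard error, SE, 0.46, 95% interval 0.54 to 2.51). The edgeR unadjusted p was 0.00503 and the adjusted p was 0.242, so the difference did not pass the threshold over all genes. When single libraries were dropped, it lay between 1.18, with Lyve-1- replicate 3 left out, and 2.00, with Lyve-1- replicate 2 left out. Without both Lyve-1- replicate 3 and Lyve-1+ replicate 1 it was 1.15 (edgeR adjusted p = 0.921).

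The partners of TLR4 were measured beside it. *Ly96*, which encodes MD-2, the protein that holds lipopolysaccharide on TLR4, averaged 8.25 ± 1.39 CPM in Lyve-1- and 21.2 ± 6.84 CPM in Lyve-1+ libraries (SD, n = 3 each), again with no overlap between the libraries (log2FC 1.36, edgeR adjusted p = 0.811). *Cd14*, which hands lipopolysaccharide to the complex, was far higher in level, at 1601 ± 656 and 1245 ± 384 CPM (SD, n = 3 each), and its libraries overlapped (log2FC -0.36, edgeR adjusted p = 1.00). *Cd180* and *Ly86*, which encode a TLR4-related receptor and its partner MD-1, had log2FCs of 0.40 and -0.22, each with an edgeR adjusted p of 1.00, and their libraries overlapped.

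*Tlr2* (chromosome 3, 83836272 to 83841767, minus strand), the shared subunit of the lipoprotein receptors, was the most abundant member. Its level was 337, 448 and 205 CPM in Lyve-1- replicates 1, 2 and 3 and 204, 362 and 176 CPM in Lyve-1+ replicates 1, 2 and 3. The Lyve-1+ library was lower in 3 of 3 comparisons of libraries with the same number, but the subsets overlapped. The means were 330 ± 122 and 247 ± 100 CPM (SD, n = 3 each), a log2FC of -0.42 (SE 0.34, 95% interval -1.14 to 0.31, edgeR adjusted p = 1.00). This difference was within the spread between pools.

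*Tlr1* and *Tlr6*, the partners of *Tlr2*, lie next to each other on the minus strand of chromosome 5, *Tlr1* at 64924679 to 64933563 and *Tlr6* at 64952031 to 64960097. They are close copies, and the counting of 50-bp reads could have split or dropped reads between them. Of all 50-base windows in its transcripts, *Tlr1* shared 15.4% and *Tlr6* 12.3% with another gene, and 454 windows were common to both. No window of *Tlr2*, *Tlr5*, *Tlr7*, *Tlr8*, *Tlr9* or *Tlr13* was shared with another gene, and 0.216% of those of *Tlr4* were. The longest identical stretch was 229 coding bases, shown here because a 50-bp read that lies wholly inside it matches both genes. It lies at chr5:64925537-64925765 in *Tlr1* (coding bases 1468 to 1696 of 2388, stop codon included) and at chr5:64953828-64954056 in *Tlr6* (coding bases 1507 to 1735 of 2421), and is given 5′ to 3′ on the minus strand from the GENCODE M21 transcripts on mm10.
Tlr1 and Tlr6: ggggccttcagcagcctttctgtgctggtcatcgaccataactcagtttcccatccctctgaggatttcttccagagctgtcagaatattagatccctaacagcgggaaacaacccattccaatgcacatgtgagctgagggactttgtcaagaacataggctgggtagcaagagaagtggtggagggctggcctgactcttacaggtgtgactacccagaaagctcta

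*Tlr1* was at 7.23, 24.9 and 31.6 CPM in Lyve-1- replicates 1, 2 and 3 and at 13.6, 70.0 and 15.2 CPM in Lyve-1+ replicates 1, 2 and 3. Lyve-1+ replicate 2 alone was above the Lyve-1- range. The log2FC was 0.64 (SE 0.72, edgeR adjusted p = 1.00) and turned to -0.57 without that library. *Tlr6* was among the scarcest members, with 22, 109 and 67 counts in the Lyve-1- libraries and 178, 25 and 4 counts in the Lyve-1+ libraries. The Lyve-1+ libraries held both the highest and the lowest value, so the subsets overlapped. Its log2FC was -0.48 (SE 1.64, 95% interval -3.98 to 3.03, edgeR adjusted p = 1.00), and it turned to 0.03 when Lyve-1+ replicate 3 was dropped.

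*Tlr5* (chromosome 1, 182954788 to 182976044, plus strand), the flagellin receptor, was at 35.5, 38.3 and 17.5 CPM in Lyve-1- replicates 1, 2 and 3 and at 76.0, 25.2 and 36.0 CPM in Lyve-1+ replicates 1, 2 and 3. Lyve-1+ replicate 1 was the highest library, and the rest overlapped. The log2FC of 0.59 (SE 0.53, edgeR adjusted p = 1.00) was 0.01 without that library.

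Among the endosomal receptors, *Tlr7* and *Tlr8* lie side by side on the X chromosome, both on the minus strand, *Tlr8* at 167242696 to 167264329 and *Tlr7* at 167304929 to 167330558. *Tlr8* had 522, 487 and 138 counts in Lyve-1- replicates 1, 2 and 3 and 1130, 1560 and 373 counts in Lyve-1+ replicates 1, 2 and 3. In CPM this was 43.9, 43.3 and 20.1 against 86.1, 74.7 and 47.0. The subsets did not overlap, although the gap between 43.9 and 47.0 CPM was small beside the spread within them. The means were 35.7 ± 13.5 and 69.3 ± 20.1 CPM (SD, n = 3 each), a log2FC of 0.95 (SE 0.43, 95% interval 0.02 to 1.88, edgeR unadjusted p = 0.0449 and adjusted p = 0.626). When single libraries were dropped, it lay between 0.67 and 1.14, and without Lyve-1- replicate 3 and Lyve-1+ replicate 1 together it was 0.46 (edgeR adjusted p = 1.00).

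*Tlr7* was at 120.4, 124 and 47.4 CPM in Lyve-1- replicates 1, 2 and 3 and at 158, 169 and 118 CPM in Lyve-1+ replicates 1, 2 and 3. The Lyve-1+ library was higher in 3 of 3 comparisons of the same number, but the lowest Lyve-1+ library fell within the Lyve-1- range. The means were 97.1 ± 43.1 and 148 ± 26.6 CPM (SD, n = 3 each), a log2FC of 0.61 (SE 0.37, edgeR unadjusted p = 0.117 and adjusted p = 0.871), which was 0.28 without Lyve-1- replicate 3.

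*Tlr9* (chromosome 9, 106222598 to 106226883, plus strand), the sensor of CpG DNA, had 827, 1028 and 389 counts in Lyve-1- replicates 1, 2 and 3 and 561, 1107 and 198 counts in Lyve-1+ replicates 1, 2 and 3. Scaled to library size, the Lyve-1- libraries were at 69.5, 91.3 and 56.7 CPM and the Lyve-1+ libraries at 42.7, 53.0 and 24.9 CPM. The highest Lyve-1+ library was just below the lowest Lyve-1- library. The means were 72.5 ± 17.5 and 40.2 ± 14.2 CPM (SD, n = 3 each), a log2FC of -0.85 (SE 0.41, 95% interval -1.72 to 0.02, edgeR unadjusted p = 0.0557 and adjusted p = 0.667). It lay between -1.12 and -0.63 when single libraries were dropped. Without Lyve-1- replicate 3 and Lyve-1+ replicate 1 together it was -1.06 (edgeR adjusted p = 0.967).

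*Tlr13* (X chromosome, 106143204 to 106160493, plus strand), which senses bacterial ribosomal RNA and has no human counterpart, was at 99.5, 123 and 20.8 CPM in Lyve-1- replicates 1, 2 and 3 and at 73.4, 127 and 77.5 CPM in Lyve-1+ replicates 1, 2 and 3. Lyve-1- replicate 3 was far below the other libraries, and the subsets overlapped. The log2FC of 0.19 (SE 0.52, edgeR adjusted p = 1.00) turned to -0.27 when that library was dropped, and to -0.13 when Lyve-1+ replicate 2 was dropped instead.

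*Tlr3* (chromosome 8, 45395665 to 45411080, minus strand), the sensor of double-stranded RNA, varied most. It had 2, 81 and 17 counts in the Lyve-1- libraries and 337, 188 and 0 counts in the Lyve-1+ libraries. The highest and the lowest library were both Lyve-1+, and the log2FC of 1.81 had a 95% interval of -1.98 to 5.61 (edgeR adjusted p = 1.00). *Tlr3* overlaps the antisense gene Gm45542 over 381 exonic bases, 5.30% of its 50-base windows are shared with it, and the strand setting of the counting was not given in the sources used here. In Lyve-1- replicate 3 its 17 counts were 1.24 times the density of the olfactory receptor genes per kb, so they could not be told from that background. In the same library *Tlr4* was 5.79 times and *Tlr6* 6.80 times that density, and *Tlr2*, at 176 times, was farthest above it.

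**Figure D2:**
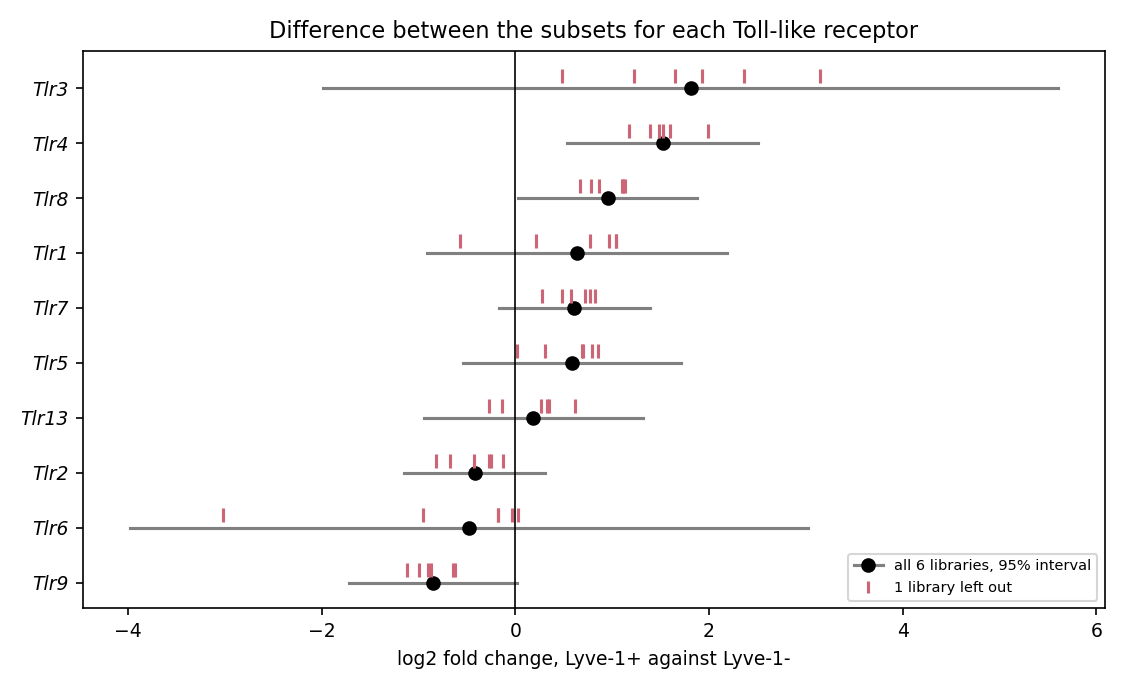
Log2FC of each Toll-like receptor, Lyve-1+ against Lyve-1-, from edgeR, ordered by size. Black points and grey lines are the estimates and 95% intervals from all 6 libraries, and red ticks the estimates with 1 library left out; the intervals of *Tlr4* and *Tlr8* lie above 0 before adjustment over all genes, and that of *Tlr9* reaches 0.02.

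Within a library, levels per length gave the order of the receptors. Mean levels over the 6 libraries, in CPM per kb of exon, were 95.7 for *Tlr2*, 30.1 for *Tlr7*, 20.2 for *Tlr13*, 16.2 for *Tlr9*, 14.6 for *Tlr8*, 9.49 for *Tlr4*, 8.10 for *Tlr1*, 7.95 for *Tlr5*, 1.64 for *Tlr6* and 1.43 for *Tlr3*. Among all genes tested, *Tlr2* was at the 97.3rd percentile of level per kb and *Tlr3* at the 23.8th. *Tlr2* was the first and *Tlr7* was above *Tlr13* in 6 of 6 libraries, and *Tlr8* was above *Tlr4* and *Tlr5* above *Tlr6* in 6 of 6. *Tlr13* was above *Tlr9* in 5 of 6, *Tlr4* above *Tlr1* and *Tlr6* above *Tlr3* in 4 of 6, and *Tlr1* above *Tlr5* in 2 of 6, and none of these 4 pairs was separated beyond its spread. *Tlr9* was above *Tlr8* in 3 of 6, the 3 Lyve-1- libraries, so that their order differed between the subsets.

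The summed level of the family differed between the subsets by less than the spread between pools. It was 203 ± 74.5 CPM per kb in the Lyve-1- subset and 208 ± 60.9 CPM per kb in the Lyve-1+ subset (SD, n = 3 each). The make-up of the sum was less alike. *Tlr2* made up 52.8% to 54.5% of the sum in the Lyve-1- libraries and 33.4% to 44.3% in the Lyve-1+ libraries. *Tlr9* made up 9.45% to 13.1% and 4.79% to 6.07%, while *Tlr4* made up 1.79% to 2.79% and 5.91% to 7.98%. *Tlr7* went from 9.31% to 13.9% in the Lyve-1- libraries and from 15.2% to 19.3% in the Lyve-1+ libraries, and *Tlr8* from 4.42% to 5.78% and from 7.69% to 11.9%. The ranges of these 5 receptors did not overlap, and those of the other 5 did. Shares of 1 sum are not independent, since a lower share of *Tlr2* raises the rest, and in CPM only *Tlr4*, *Tlr8* and *Tlr9* were apart. Cell-surface receptors together made up 64.2% ± 4.50 and 55.7% ± 3.97 of the sum (SD, n = 3 each), with overlapping libraries.

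**Figure D3:**
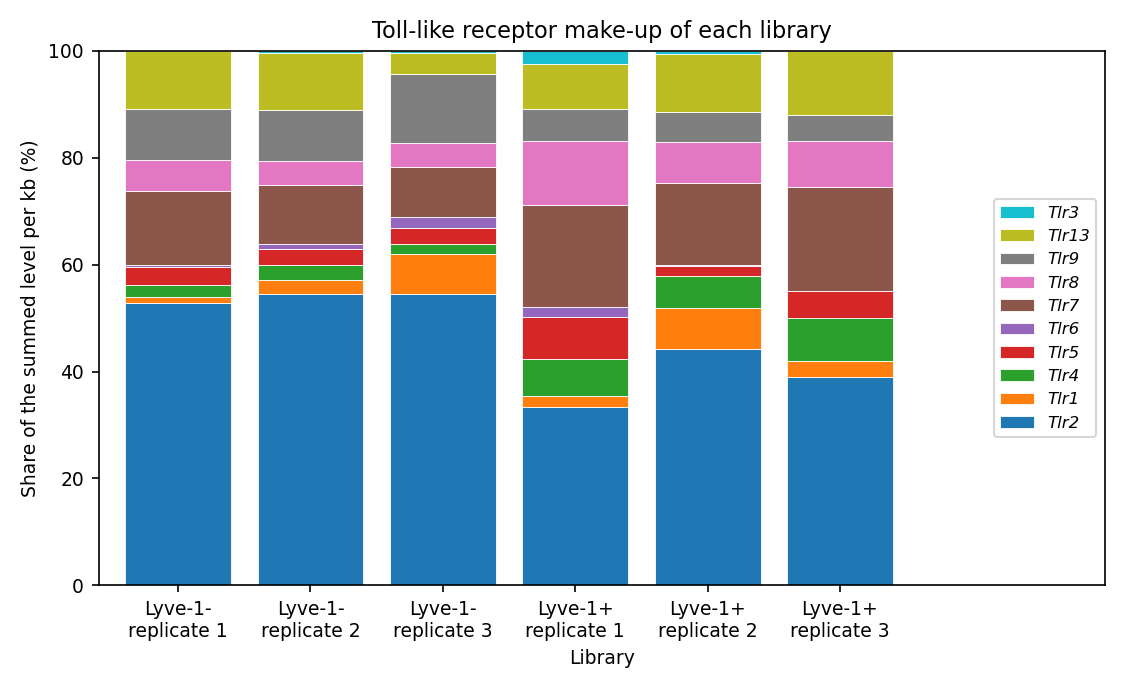
Share of each receptor in the summed level per kb of the 10 receptors, in percent, for each library, with cell-surface receptors stacked from the bottom and endosomal receptors above them. The *Tlr2* share is 52.8% or more in the Lyve-1- libraries and 44.3% or less in the Lyve-1+ libraries, and the *Tlr4* and *Tlr8* shares are larger in the Lyve-1+ libraries.

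A ratio between receptors of the same library does not depend on how libraries were scaled. The pairs below were picked after the levels had been seen, so the ratios are a description without a test. The level of *Tlr4* per kb was 0.241, 0.290 and 0.137 times that of *Tlr9* in Lyve-1- replicates 1, 2 and 3 and 1.16, 1.05 and 1.67 times that of *Tlr9* in Lyve-1+ replicates 1, 2 and 3. *Tlr9* thus exceeded *Tlr4* in every Lyve-1- library and *Tlr4* exceeded *Tlr9* in every Lyve-1+ library. *Tlr8* stood to *Tlr9* at 0.612, 0.459 and 0.344 in the Lyve-1- libraries and at 1.95, 1.37 and 1.83 in the Lyve-1+ libraries, with the same turn in order. On the log2 scale, *Tlr7* to *Tlr9* was 0.09 ± 0.54 and 1.70 ± 0.29, and *Tlr4* to *Tlr2* was -4.58 ± 0.32 and -2.48 ± 0.37 (SD, n = 3 each). The neighbours *Tlr7* and *Tlr8* kept a ratio of 1.22 ± 0.15 and 0.94 ± 0.23 on the log2 scale (SD, n = 3 each), with overlapping libraries.

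**Figure D4:**
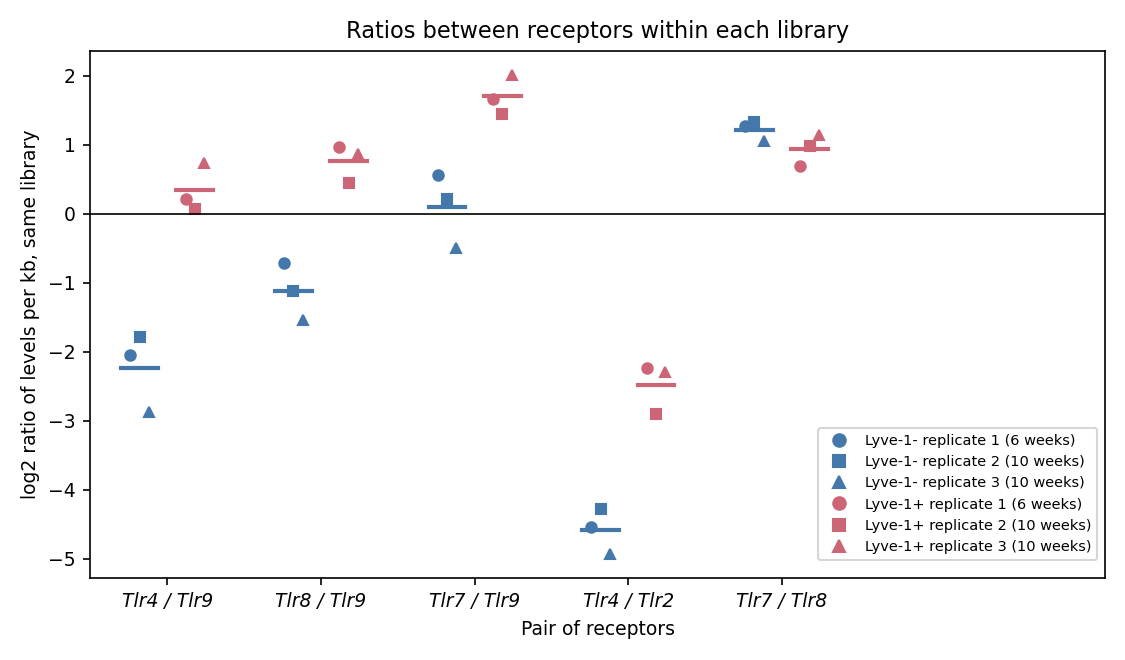
Log2 ratio of the levels per kb of named receptor pairs, in each library, where 0 means equal levels. Each symbol is 1 pool and each bar a subset mean; for *Tlr4* to *Tlr9* and *Tlr8* to *Tlr9* the Lyve-1- libraries lie below 0 and the Lyve-1+ libraries above it, while *Tlr7* to *Tlr8* overlaps.

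Markers of other cells moved with some of these receptors. In the Lyve-1- subset, where *Tlr9* was higher, most markers of conventional and mature dendritic cells were higher too. The 6 markers of type 1 conventional dendritic cells summed to 318 to 361 CPM in the Lyve-1- libraries and 174 to 269 CPM in the Lyve-1+ libraries, and all 6 had negative log2FCs, with *Xcr1* counted in every library and *Clec9a* at 0 in some of each subset. Most of this sum was *Wdfy4*, at 239 to 289 CPM and 152 to 233 CPM (log2FC -0.39), and the libraries of *Clec9a*, *Itgae* and *Batf3* overlapped. The 6 markers of mature and type 2 dendritic cells summed to 1007 to 1833 CPM and 653 to 750 CPM, 5 of them with negative log2FCs. *Ccr7* was at 139 to 505 CPM and 14.8 to 107 CPM, and *Ccl22* at 139 to 722 CPM and 3.28 to 54.8 CPM. The libraries of *Flt3*, *Zbtb46*, *Cd209a* and *Mgl2* overlapped, and *Mgl2* had a positive log2FC of 0.35. The sums of both lists were highest in replicate 3 of each subset. That library had the lowest *Tlr9* level of its subset, at 56.7 CPM in Lyve-1- and 24.9 CPM in Lyve-1+. An order of 3 pools per subset cannot show whether these markers and *Tlr9* move together. Plasmacytoid dendritic cells and B cells are known users of TLR9. The 6 markers of the former summed to 136 to 204 CPM in the Lyve-1- libraries and 242 to 294 CPM in the Lyve-1+ libraries, with *Siglech* counted in every library and *Klk1* and *Ccr9* at 0 in some. The 4 B cell markers analysed summed to 2.18 to 28.3 CPM and 9.30 to 46.1 CPM, with *Cd79b* counted in every library and *Cd79a* at 0 in some of each subset. The plasmacytoid sum was higher where *Tlr9* was lower, mainly through *Tcf4*, at 97.5 to 123 CPM and 168 to 199 CPM. The libraries of *Siglech*, *Bst2*, *Ccr9* and *Klk1* overlapped. *Pacsin1* was lower in every Lyve-1+ library, at 0.711 to 11.2 CPM and 0 to 0.533 CPM. The B cell sum overlapped between the subsets. The part of dendritic cell RNA in the *Tlr9* difference was not tested.

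Where *Tlr4* and *Tlr8* were higher, the summed fibroblast markers and some macrophage markers were higher too. The 6 fibroblast markers, counted in every library, summed to 229 to 307 CPM in the Lyve-1- libraries and 421 to 1336 CPM in the Lyve-1+ libraries, 5 of them with positive log2FCs. The 5 neutrophil markers analysed summed to 72.3 to 111 CPM and 89.1 to 497 CPM, 4 of them with positive log2FCs, with *Cxcr2* and *Retnlg* at 0 in some Lyve-1- libraries. The neutrophil sums of Lyve-1+ replicates 1 and 2, at 89.1 and 92.5 CPM, lay inside the Lyve-1- range, and only that of replicate 3 was above it. The fibroblast and neutrophil sums were both highest in Lyve-1+ replicate 3, the Lyve-1+ library with the lowest *Tlr4* and *Tlr8* levels in CPM. Without that library the log2FCs of *Tlr4* and *Tlr8* were 1.59 and 1.14. With 3 pools per subset, neither the order nor these values show how the markers bear on the receptors. *Csf1r* averaged 780.3 ± 70.2 and 1339 ± 353 CPM (SD, n = 3 each) with no overlap, and *Cd68* was also higher without overlap (log2FC 0.71, edgeR adjusted p = 0.418). Other macrophage markers went the opposite way or overlapped. *Ptprc* averaged 1404 ± 255 and 913 ± 246 CPM (SD, n = 3 each), lower in every Lyve-1+ library (log2FC -0.62, edgeR adjusted p = 0.541), and *Adgre1* and *Itgam* had log2FC of -0.29 and 0.08 with overlapping libraries. The 5 monocyte markers summed to 408 to 878 CPM and 233 to 636 CPM, the 6 T and NK cell markers to 55.5 to 96.9 CPM and 8.84 to 53.3 CPM (*Cd8b1*, *Ncr1* and *Nkg7* at 0 in some libraries of each subset), and the 6 markers of mammary epithelium to 39.9 to 278 CPM and 53.2 to 99.2 CPM. The part of these cells in the receptor differences was not tested.

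The rest of the pathway was read from 72 genes, of which 69 could be tested. None was called and none had an edgeR adjusted p under 0.05, a level reached by 0.629% of all genes. At an unadjusted p under 0.05, edgeR gave 1 higher in the Lyve-1+ subset (1.45% of those tested, against 4.2% of all genes) and 12 lower (17.4%, against 3.5%). The lists were chosen with earlier results of these data known. Their shares beside those of all genes, here and below, are therefore a description only. DESeq2 called 2 of the 69, *Tnip3* and *Il1b*, where it called 1.06% of all genes. The Lyve-1+ libraries lay above all Lyve-1- libraries for 4 genes and below them for 10 (5.80% and 14.5%, against 7.82% and 6.5% of all genes). The median log2FC was -0.07 over the pathway and -0.01 over all genes, while it was 0.60 over the 10 receptors, 7 of which were positive and 3 negative. Only *Tlr4* and *Tlr8* were positive, and only *Tlr2* and *Tlr9* negative, in every alternative fit. The other receptors changed sign in some fits, so this median is not a rise of the whole family.

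Along the route from receptor to gene, the genes for ligand delivery and for receptor folding and trafficking were on balance level or slightly positive. Of 6 co-receptor and ligand delivery genes, 4 had positive log2FCs (median 0.29), and *Ly96* was the 1 whose libraries did not overlap. Of 9 folding, trafficking and endosomal genes, 8 were positive (median 0.09). *Unc93b1*, which carries the nucleic acid receptors to endosomes, was at 478 ± 75.8 and 507 ± 170 CPM (SD, n = 3 each; log2FC 0.09, edgeR adjusted p = 1.00). *Lgmn*, an endosomal protease that can process endosomal receptors, was the highest of the list at a log2FC of 0.87 (edgeR adjusted p = 0.459), and *Slc15a4* the lowest at -0.63.

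Of 5 adaptors tested, 2 were positive (median -0.25). *Myd88* was at 93.0 ± 31.3 and 76.0 ± 23.8 CPM and *Ticam1*, which encodes TRIF, at 74.7 ± 14.1 and 49.8 ± 35.2 CPM (SD, n = 3 each), log2FCs of -0.29 and -0.59 with overlapping libraries. *Tirap*, the bridge between MyD88 and the TLR2 and TLR4 tails, had a log2FC of 0.65 with no overlap between the libraries (edgeR adjusted p = 1.00). Of 14 signalling kinases and ligases, 6 were positive (median -0.01), from *Tab1* at 1.64 (edgeR adjusted p = 0.882) to *Chuk*, which encodes an IkB kinase, at -1.29 (edgeR adjusted p = 0.430).

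Of 9 transcription factors, 7 were negative (median -0.32) and 3 had an unadjusted p under 0.05, all lower (33.3%, against 3.5% of all genes). *Relb*, an NF-kB subunit, was at 133 ± 32.8 and 59.5 ± 15.2 CPM (SD, n = 3 each; log2FC -1.16, edgeR adjusted p = 0.203), while *Irf7* had a log2FC of 1.27 with overlapping libraries (edgeR adjusted p = 0.656). *Rel*, named after its values were seen, was at 493 ± 5.41 and 251 ± 67.1 CPM (SD, n = 3 each; log2FC -0.97, edgeR adjusted p = 0.171).

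Of 11 negative regulators, 8 were negative (median -0.69) and 4 had an unadjusted p under 0.05, all lower (36.4%, against 3.5% of all genes). *Irak3*, a brake on IRAK signalling in macrophages, was level at 66.5 ± 7.64 and 67.4 ± 14.0 CPM (SD, n = 3 each; log2FC 0.02). The ends of the list were *Rnf216* at 0.42 and *Sigirr* at -1.97 (edgeR adjusted p = 0.978 and 1.00). The 4 genes, named after their values were seen, were *Tnfaip3*, *Nfkbia*, *Tnip1* and *Tnip3*, whose products restrain NF-kB and whose genes NF-kB induces. Their log2FCs were -0.80, -0.60, -0.91 and -1.60 (edgeR adjusted p = 0.237, 0.466, 0.407 and 0.162). Their libraries did not overlap (6.5% of all genes were apart and lower), but genes picked by p are likely to be apart, so this adds no separate evidence.

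Of 13 induced target genes tested, 8 were negative (median -0.21). By edgeR, 3 had an unadjusted p under 0.05, all lower (23.1%, against 3.5% of all genes). The ends of the list were *Acod1* (listed as *Irg1*) at 0.77 and *Il12b* at -3.34 (edgeR adjusted p = 1.00 and 0.253). *Il1b*, named because DESeq2 called it, was at 1650 ± 470 and 558 ± 278 CPM (SD, n = 3 each) with no overlap. Its log2FC was -1.56 (edgeR adjusted p = 0.117), and the DESeq2 adjusted p was 0.000671. *Il12b*, which encodes a subunit of interleukin-12, was at 32.3 ± 7.14 and 3.24 ± 4.61 CPM (SD, n = 3 each) with no overlap. Its Lyve-1+ mean rested on replicate 3, at 8.57 CPM against 0.686 and 0.479 CPM in replicates 1 and 2. With that library, the one nearest the Lyve-1- range, left out the log2FC was -5.81 (edgeR adjusted p = 0.00168). *Il12b* was not called with any other single library left out. *Tlr11* and *Tlr12*, the other mouse Toll-like receptors in the table, had 0, 142 and 78 counts and 0, 73 and 62 counts in Lyve-1- replicates 1, 2 and 3. In Lyve-1+ replicates 1, 2 and 3 they had 8, 140 and 0 counts and 4, 64 and 0 counts. The log2FCs, with a median of -1.94, were -1.70 and -2.18, each with an edgeR adjusted p of 1.00, and the libraries overlapped.

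**Figure D5:**
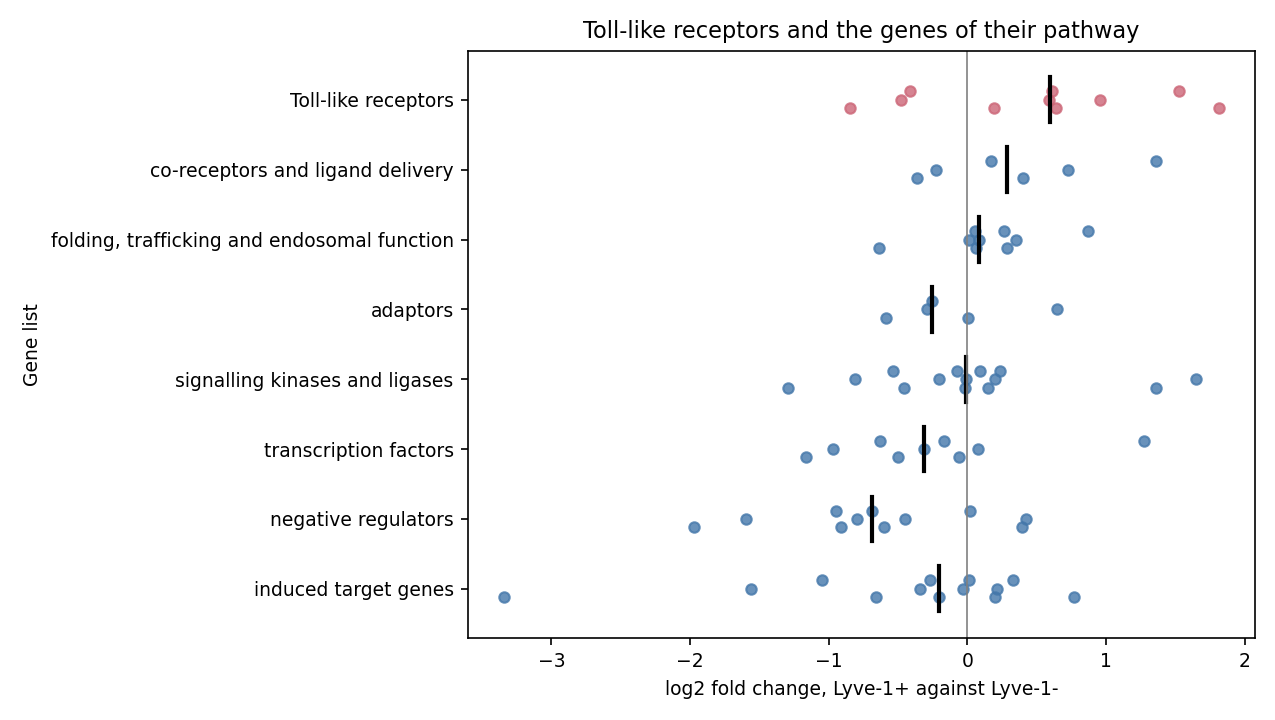
Log2FC, Lyve-1+ against Lyve-1-, of the 10 Toll-like receptors (red) and of the tested genes of 7 pathway lists (blue), 1 point per gene, with the median of each list as a black bar. Medians go from 0.60 for the receptors to -0.69 for the negative regulators; no gene shown was called by edgeR.

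The levels were also compared between the ages, 10 weeks over 6 weeks, in a model that held the subset too. No receptor was called for age by edgeR (0% of all genes called), and 1 had an unadjusted p under 0.05, *Tlr1*, higher at 10 weeks (2.05% of all genes higher, 1.27% lower). *Tlr1* was at 7.23 and 13.6 CPM in the 6-week libraries and at 15.2 to 70.0 CPM in the 4 libraries from 10 weeks, so that the ages did not overlap (4.47% of all genes apart and higher at 10 weeks, 5.21% apart and lower). Its log2FC was 1.81 (SE 0.72, edgeR unadjusted p = 0.0235, adjusted p = 1.00). The other receptors had age log2FCs between -2.07 for *Tlr6* and 0.17 for *Tlr2*, and their ages overlapped. The age test rests on 2 libraries at 6 weeks, 1 per subset, so within a subset age and pool cannot be told apart.

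In the interaction model, which asks whether the subsets differ by another amount at 10 weeks than at 6 weeks, edgeR called 0 receptors (0% of all genes), and 0 had an unadjusted p under 0.05 (4.59% of all genes in either direction). The largest estimates were those of the scarce receptors *Tlr3* and *Tlr6*, at -7.27 (SE 4.15, edgeR adjusted p = 0.976) and -6.35 (SE 3.99, edgeR adjusted p = 0.976) on the log2 scale. For both, Lyve-1+ replicate 1 was the highest of all libraries.

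The genes whose log2 CPM followed *Tlr4* most closely over the 6 libraries, out of all genes tested, were *Ctsl*, which encodes the lysosomal protease cathepsin L, *Golga3* and *Ifi203*, with Pearson r of 0.989, 0.988 and 0.987. *Ctsl* had a log2FC of 1.54 between the subsets (edgeR adjusted p = 0.0396). For *Tlr2*, whose level varied between pools more than between subsets, they were *Npr2*, *Plcb1* and *Uhrf2*, with r of 0.998, 0.992 and 0.989. Each r is the highest of 13348 genes over 6 libraries with a shared scaling, and is given as a description.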

How the data were processed

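RNA was measured in 6 libraries of sorted mammary gland macrophages, 3 per subset, made with a stranded total RNA kit for low input. Per the labels and methods, paired reads of 50 bp were aligned by the authors with HISAT2 2.0.2 (mm10) and counted per gene symbol with featureCounts 1.5.0 (Subread), and the deposited values are raw counts without normalization. How reads with several matches were treated was not given in the sources used here. According to the methods, genes under 300 bp were dropped, and a 6-week library was set aside as an outlier.

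From these deposited counts, genes were kept by filterByExpr (13348 of 24061), scaled by TMM and tested with edgeR 4.0.16 (R 4.3.3, limma 3.58.1) by the robust quasi-likelihood test with Benjamini-Hochberg adjustment over all genes tested. Calls needed a log2 fold change (log2FC) above 1 and below 10 in size with an adjusted p under 0.01. The common biological coefficient of variation was 0.931. CPM are counts scaled to the TMM-adjusted library size; levels per kb divide them by exon length. Age was tested in a model with both age and subset, and in an interaction model. DESeq2 1.42.0 was an alternative, as were other scalings and filters, a block on the replicate number, age added to the model, a fit of the 10-week libraries, subtraction of the olfactory receptor density, each library left out and an adjusted p under 0.05 with no limit on the fold. The tests were also run on simulated counts with known changes, and the outcome of those runs is not given here.

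Positions and exon lengths came from GENCODE M21 on mm10, where 22757 symbols matched directly, 914 through a RefSeq synonym and 390 not at all. All receptors were named with their values. Of the pathway lists the named genes were *Cd14*, *Ly96*, *Cd180*, *Ly86*, *Unc93b1*, *Myd88*, *Ticam1*, *Irak3* and the highest and lowest log2 fold change of each list; for likeness, the 3 genes with the highest r to the most abundant receptor and to that with the smallest p. The members and lists were chosen with earlier results of these data known. The sources used here do not say whether libraries of the same number share mice, and they were not treated as paired. Some marker genes are not reported here and were left out of the marker sums.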

Additional observations from a re-analysis of the deposited data

How the results depend on the processing

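The 10 receptors had 0 calls under every alternative that left no subset with a lone library. In those fits the edgeR and DESeq2 adjusted p of *Tlr4* was 0.0441 to 0.921. Over 17 alternatives *Tlr4* and *Tlr8* kept a positive log2 fold change (0.92 to 2.00 and 0.09 to 1.14). *Tlr9* and *Tlr2* kept a negative one (-1.71 to -0.63 and -1.18 to -0.13). The values 0.92, 0.09, -1.71 and -1.18 came from the fit without the 3 libraries with olfactory receptor density above 1 per kb. That fit left a lone Lyve-1+ library, and its *Tlr8* estimate was near 0. With 3 pools per subset, the 95% interval of *Tlr4* ran from 0.54 to 2.51 and those of the scarce *Tlr3* and *Tlr6* were wider. Scaling by DESeq2 size factors moved the median log2 fold change over the table by -0.03, and scaling by total size moved it by -0.07.

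The number of genes called over the whole table was 15. It was 141 with DESeq2, 188 without a filter on low counts, 32 with at least 10 counts in every library, 58 with age as a covariate, 84 at an adjusted p under 0.05 with no limit on the fold, between 1 and 81 with 1 library left out (1 when Lyve-1- replicate 3 was dropped, 81 when Lyve-1+ replicate 2 was), and 0 without both libraries with the most olfactory receptor genes, a choice made after the data were seen. Of the pathway genes, 0 were called, but 2 with DESeq2 and 2 without the filter (*Tnip3* and *Il1b* in both), and between 0 and 2 with 1 library left out (*Tnip3* and *Il12b* without Lyve-1+ replicate 3). The cause was not tested.

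Whether libraries of the same number share a pool of mice was not given in the sources used here. The correlations of deviations between them were -0.0462, -0.00183 and -0.147 over all genes tested. With 3 libraries per subset, such correlations cannot show whether pools were shared, and single genes could still move together by number. The main fit did not treat the libraries as paired, and a fit with a block was run beside it. With the number as a replicate block, 140 genes were called over the whole table, 1 in the pathway (*Ptgs2*) and 0 among the receptors, of which 1, *Tlr4*, had an adjusted p under 0.05, where 2.02% of all genes did (log2 fold change 1.68, edgeR adjusted p = 0.0441). At an unadjusted p under 0.05, the block fit gave 3 receptors higher in the Lyve-1+ subset, *Tlr4*, *Tlr7* and *Tlr8* (4.96% of all genes). It gave 1 lower, *Tlr9* (3.99% of all genes).

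Some receptors without a call changed direction between the subsets. With 1 library left out, *Tlr1* went from -0.57 (without Lyve-1+ replicate 2) to 1.04, *Tlr6* from -3.01 to 0.033 (without Lyve-1+ replicate 3) and *Tlr13* from -0.27 (without Lyve-1- replicate 3) to 0.62, with -0.13 when Lyve-1+ replicate 2 was dropped. *Tlr3* was at -0.11 in the 10-week libraries alone. Without both libraries with the most olfactory receptor genes, *Tlr5* was at -0.29 and *Tlr13* at -0.15. When Lyve-1+ replicate 2 was dropped as well, a fit chosen after the data were seen in which the lone Lyve-1+ library is assumed to vary like the others, *Tlr1* was at -0.093, *Tlr3* at -8.26, *Tlr5* at -0.051, *Tlr7* at -0.064 and *Tlr13* at -0.54. Values near 0 also turned. *Unc93b1* was at -0.15 in the 10-week libraries alone and between -0.20 and 0.25 with 1 library left out. *Irak3* was at -0.0071 with DESeq2, -0.0069 with its size factors in edgeR, -0.048 with total size, -0.0034 after subtraction of the olfactory receptor density and between -0.19 and 0.13 with 1 library left out. For age, the log2 fold change of *Tlr9* was 0.024 and that of *Tlr13* 0.016 with total size, and with 1 library left out the ranges were -0.11 to 0.41 for *Tlr2*, -1.65 to 1.59 for *Tlr3*, -0.50 to 0.26 for *Tlr4*, -0.28 to 0.18 for *Tlr9* and -0.75 to 0.41 for *Tlr13*. The interaction of subset and age was 0.0076 for *Tlr8* with DESeq2. The cause was not tested.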
